A study of Mus musculus with 43 samples.

Results

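The cytosolic ribosomal protein genes are the set described here. They were taken as every row of the count table whose symbol is Rpl, Rps or Rplp followed by a number. After the number only the letters a, l or x and a further digit were allowed, and no pseudogene suffix. This gave 89 of 54532 rows. Of these, 35 belong by symbol to the small subunit and 54 to the large subunit and its stalk, pseudogenes included. By the annotation, 83 are protein-coding, 5 are processed pseudogenes (Rps12l1, Rpl32l, Rpl6l, Rps3a2, Rps3a3) and 1 is a transcribed processed pseudogene (Rps4l). Endothelial cells (EC) were sorted as CD31+, CD45- and CD11b- cells from the brains of mice aged 2 months, and their RNA was sequenced in 43 libraries, 22 from hippocampus and 21 from cortex. The recently wild-derived strains were CAST/EiJ (6 libraries) and WSB/EiJ (6), and the long-inbred strains were 129S1/SvImJ (9), C57BL/6J (6), NOD/ShiLtJ (6), A/J (5) and DBA/2J (5). Sample titles carry the tag high or low, which the study's text does not define. The male mice gave 14 libraries titled high and 13 titled low, with 4 libraries for each strain except 129S1/SvImJ, which had 3. The strain and tag comparisons used these 27 male libraries. The 16 female libraries were spread unevenly over strains and tags and entered the comparisons by region and by origin of the strain. They were also read by strain as libraries outside the strain test, and entered alternatives of it over all 43 libraries. The labels do not give the mouse, so every library was treated as independent, and p-values measure the spread between libraries, which may be partly technical.

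A ribosome is built from a small subunit that reads the mRNA and a large subunit that joins the amino acids, and each contains rRNA and many proteins that are made in matching amounts. The stalk of the large subunit, made of Rplp0, Rplp1 and Rplp2, recruits the factors that drive translation. Most ribosomal protein mRNAs begin with a C followed by a run of pyrimidines, the terminal oligopyrimidine (TOP) motif, through which mTOR and Larp1 set how strongly they are translated. These mRNAs are abundant in the germ line, where many were copied back into the genome, so mammalian genomes hold large numbers of processed pseudogenes that differ from their parent genes at only a few bases. In brain endothelium, which forms the blood-brain barrier, ribosomal protein genes are housekeeping genes.

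The total count of a library ran from 1626534 to 49372356. Of 8 endothelial markers, 7 had a count in all libraries and Ly6c1 was at 0 in some. All 6 pericyte markers were counted in every library, as were 4 of 5 astrocyte, 3 of 5 neuronal, 1 of 4 smooth muscle and 1 of 5 oligodendrocyte markers. Each of the 5 microglial and 4 choroid plexus markers was at 0 in some libraries. Both male WSB/EiJ hippocampus libraries stood apart: the library titled high had the fewest counts, 1626534 on 8754 genes, and in the library titled low rRNA-like genes took 29.3% of the counts. WSB/EiJ results are therefore also given without these libraries. Levels are given as CPM, the count of a gene relative to the TMM-scaled total of its library. A gene was tested when it reached 0.5 CPM in at least 1 library, which 88 of 89 members did over 43 libraries and 87 over the male libraries.

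Together the members took 0.347% to 1.57% of the counts of a library, and their summed level was 7911 ± 2432 CPM (SD, n = 43 libraries). The members were unequal: 65 had a count in all libraries, 72 had a mean of at least 20 CPM, and 9 had a mean under 1 CPM. The 10 highest members held 31.7% of the summed level. Divided by the exon length of each gene, the median over members was 37.6 CPM per kb. The stalk gene Rplp1 was the highest, at 654 ± 394 CPM per kb (n = 43). It was followed by Rpl8 (250 ± 86), Rps23 (210 ± 129), Rps29 (172 ± 100) and Rpl36 (172 ± 82), whose means differed by less than the spread over libraries. The other stalk genes, Rplp2 (80.6 ± 28.5 CPM per kb) and Rplp0 (53.4 ± 24.1), were lower than Rplp1. Exon length was that of all annotated exons of a gene, so the order of members also depends on the annotation.

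**Figure D1:**
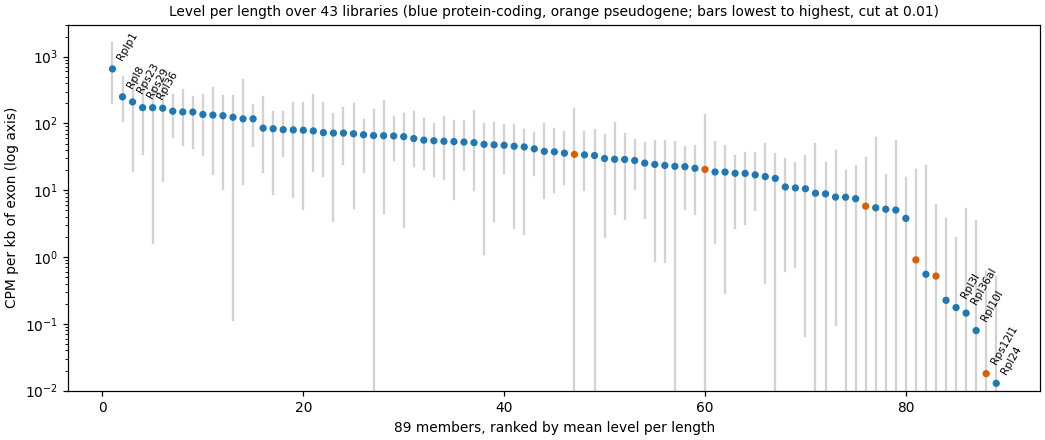
Mean level of all 89 members over 43 libraries in CPM per kb of exon, on a log axis, ranked. Blue points are protein-coding genes and orange points pseudogenes, bars run from the lowest to the highest library and end at 0.01, and the 5 highest and 5 lowest members are named, from Rplp1 at 654 to Rpl24 at 0.0129 CPM per kb.

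Several members are paralogs or copies of a canonical gene, and all 8 described here were lower per length than their parent genes. Rpl3l, the heart and muscle form of Rpl3, had a count in 6 libraries and 0.175 CPM per kb, against 47.1 for Rpl3. Rpl10l, which serves in male germ cells in place of the X-linked Rpl10, had counts in 1 library (24 counts) and 0.0792 CPM per kb, against 35.9 for Rpl10. Rpl39l, another form known from the testis, had counts in 2 libraries and 0.552 CPM per kb, against 8.82 for Rpl39. Rpl36al had 0.145 CPM per kb against 24.3 for Rpl36a. The remaining paralogs were measured in most libraries: Rpl22l1 stood at 5.05 CPM per kb against 51.5 for Rpl22, Rps27l at 9.01 against 70.1 for Rps27, Rpl7l1 at 11.2 against 67.7 for Rpl7, and the pseudogene Rps4l at 20.5 against 71.7 for Rps4x.

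The 5 members with the lowest level per length were Rpl24 (0.0129 CPM per kb), Rps12l1 (0.0180), Rpl10l, Rpl36al and Rpl3l. Rpl24 and Rps10 encode obligate subunits of the ribosome, yet they had 7 counts in 2 libraries and 244 counts in 10 libraries. Both genes are overlapped on the same strand by another row of the table, Gm28037 and RPS10-NUDT3, which held 0 counts. Such an overlap was found for 8 members, among them Rpl13 and Rpl19, which were well counted, and its part in the low values was not tested. Outside the symbol rule, the ribosomal protein genes Rpsa (264 ± 135 CPM, n = 43), Fau (167 ± 70) and Rack1 (114 ± 44) were well counted.

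Most members have close relatives in the genome. A search of annotated transcripts at 95% identity or more over at least 100 bases and at least 0.5 of the copy found at least 1 copy for 82 of 89 members, with a median of 4 copies per member and up to 57 for Rpl21. A read can fall in a stretch that gene and copy share, so the copies are given for the genes whose results turned on them.

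Strain was the condition under which the members differed. Of 87 members tested in the male libraries, 21 (24.1%) differed among the 7 strains (edgeR's quasi-likelihood F-test, Benjamini-Hochberg adjusted p under 0.05), against 1.72% of all 27529 genes tested. High expression makes a call easier: among genes with a mean of at least 20 CPM, 18 of 68 members (26.5%) and 6.1% of all genes were called. The count was 13 when either the CAST/EiJ hippocampus library titled low or the CAST/EiJ cortex library titled high was left out, 1 in hippocampus alone and 3 in cortex alone, where each strain has at most 2 libraries. False calls in simulated counts ran above the nominal rate, most of all in this test among strains.

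Summed over the members, CAST/EiJ male libraries stood at 8918, 9839, 10166 and 10227 CPM, with a mean of 9787 ± 604 (n = 4). The 23 other male libraries ran from 4004 to 8189 CPM, with a median of 6444. All CAST/EiJ male libraries were above every other male library, and the ratio of the means was 1.59. The other strains followed in the order C57BL/6J (7420 ± 401 CPM, n = 4), NOD/ShiLtJ (6923 ± 844, n = 4), A/J (6453 ± 1182, n = 4), 129S1/SvImJ (6109 ± 1560, n = 3), DBA/2J (5167 ± 786, n = 4) and WSB/EiJ (4803 ± 751, n = 4). Neighbours in this order other than CAST/EiJ and C57BL/6J overlapped.

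The difference was present in both subunits and both regions. Small-subunit members summed to 3468 to 3902 CPM in CAST/EiJ and 1413 to 3171 in the other male libraries, and large-subunit members to 5449 to 6362 against 2425 to 5023. In hippocampus the CAST/EiJ libraries stood at 9839 and 10166 CPM against 4224 to 8189 in 12 others, and in cortex at 8918 and 10227 against 4004 to 7773 in 11 others. For comparison, the 83 mitochondrial ribosomal protein genes summed to 995 ± 98 CPM in CAST/EiJ and 770 ± 150 in the other male libraries (443 to 1014), so that the groups overlapped. In bulk samples, a different make-up of the sorted cells and a different amount of RNA per cell cannot be told apart.

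**Figure D2:**
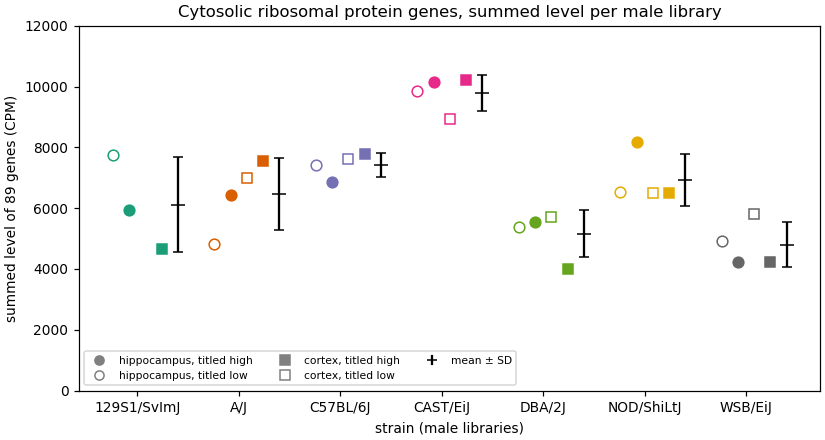
Summed level of the 89 cytosolic ribosomal protein genes in each male library, in CPM, by strain. Circles are hippocampus and squares cortex, filled symbols are libraries titled high and open symbols low, and bars give mean ± SD. The 4 CAST/EiJ libraries lie between 8918 and 10227 CPM, above all 23 others.

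Other properties of the CAST/EiJ libraries were checked. The summed level of 6 pericyte markers was 1977 to 2769 CPM in CAST/EiJ and 2753 to 9406 in the other male libraries, with WSB/EiJ at the top (6786 to 9406). Of these markers 2 were called lower in CAST/EiJ, and 1 of 4 smooth muscle markers was called higher. Their part in the result was not tested. The sum of 8 endothelial markers overlapped (9406 to 11936 against 8801 to 14271 CPM), as did the rRNA-like share (19.2% to 23.8% against 13% to 29.3%) and the total counts (3736712 to 7994762 against 1626534 to 10567966).

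Gene by gene, 14 members (16.1% of those tested) were higher in CAST/EiJ than in the mean of the other strains, against 0.61% of all genes, and 2 members were lower, Rps2 and Rpl7a, against 0.316% of all genes. In either direction 16 members were called, against 0.926% of all genes. The median log2 fold change over 87 members was 0.74, with 74 above 0 and 13 below, while the median over all genes was -0.11. Across single left-out libraries this median ran from 0.68 to 0.84, and it was 0.76 when the scaling factors were computed without the members. The count of 14 was less stable, at 8 to 20 with 1 library left out. It was 8 without the CAST/EiJ hippocampus library titled low or the cortex library titled high, 9 without the hippocampus library titled high, 0 in hippocampus alone and 1 in cortex alone.

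The small-subunit gene Rps29, mutated in some families with Diamond-Blackfan anaemia, was at 151.5, 184.3, 196.0 and 198.3 CPM in CAST/EiJ. The other male libraries ran from 24.5 to 126.3 CPM with a median of 79.2. The groups did not overlap, and the log2 fold change was 1.34 (SE 0.24, adjusted p = 1.6e-04). Rps24, another small-subunit gene linked to that anaemia, was at 253.5, 290.5, 292.8 and 304.8 CPM against 65.6 to 244.7 (median 138.0), a log2 fold change of 1.02 (SE 0.21, adjusted p = 0.0011). Rps23, at the decoding centre, was at 242.7 to 344.1 CPM against 24.5 to 241.8, with a log2 fold change of 0.90 (SE 0.23, adjusted p = 0.025). Rps4x, encoded on the X chromosome, was at 204.6 to 229.3 CPM against 36.2 to 198.0, with a log2 fold change of 0.85 (SE 0.22, adjusted p = 0.033).

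Among large-subunit genes, Rpl34 was at 109.2, 119.9, 121.5 and 135.1 CPM in CAST/EiJ against 11.5 to 99.9 (median 40.8) in the others. It had the largest log2 fold change of the large-subunit genes called higher, 1.45 (SE 0.29, adjusted p = 9.2e-04). Rpl30 (91.2 to 107.4 against 15 to 69.7 CPM) and the stalk gene Rplp2 (243.3 to 305.9 against 66.8 to 231.4 CPM) also did not overlap. Their log2 fold changes were 1.23 (SE 0.29, adjusted p = 0.0087) and 0.90 (SE 0.20, adjusted p = 0.0064). The stalk gene Rplp1, at 309.6 to 383.1 against 101.4 to 361.3 CPM, differed among strains (adjusted p = 0.049) but missed the threshold in this contrast (adjusted p = 0.056). Rps3a1 and Rpl26, also called higher, are described with their copies. Rpl8, Rpl3, Rpl9 and Rpl37 were higher by 0.76 to 1.20 on the log2 scale with overlapping libraries. Rpl3, which lies at the peptidyl transferase centre, was at 231.7, 233.3, 237.0 and 272.2 CPM in CAST/EiJ, within the range of the C57BL/6J libraries at 175.4, 213.2, 229.4 and 297.7 CPM, and was called higher in both strains.

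All CAST/EiJ male libraries exceeded every other male library for 12 of 87 members (13.8%), against 0.4% of all genes, and among genes of at least 20 CPM for 12 of 68 (17.6%) against 0.762%. Beside Rps29, Rps24, Rps23, Rps4x, Rps3a1, Rpl34, Rpl30 and Rplp2, they included Rps3, Rpl4 and Rpl23, which did not overlap but were not called in the contrast. Rps3, for example, was at 257.2 to 327.5 CPM in CAST/EiJ and 74.6 to 246.8 in the others.

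WSB/EiJ lay at the other end. Members were lower there with a median log2 fold change of -0.56, 8 above 0 and 79 below, but the median over all genes in this contrast was -0.65. Among genes of at least 20 CPM the medians were -0.56 for members and -0.04 for all genes. In all, 7 members were called, against 0.817% of all genes: the pseudogene Rps3a3 was higher, and 6 (6.9%) were lower, against 0.381% of all genes. Without both hippocampus libraries of WSB/EiJ the median was -0.45 and no member was called lower by edgeR. With single libraries left out the count was 1 to 9, and it was 1 without the WSB/EiJ cortex library titled high and 3 without the hippocampus library titled high. DESeq2 called 17 members lower with all libraries.

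Rps14, a platform protein of the small subunit, was at 8.9, 14.1, 23.8 and 36.2 CPM in WSB/EiJ, against 14.4 to 164.6 (median 54.5) in the other male libraries, a log2 fold change of -1.51 (SE 0.38, adjusted p = 0.027). Rps18, of the small-subunit head, was at 0.0, 0.8, 13.1 and 24.9 CPM against 16.0 to 114.8, with a log2 fold change of -2.25 (SE 0.48, adjusted p = 0.0039). Rps4l was at 0.0 CPM in 3 libraries and 1.8 in the fourth, against 0.2 to 67.1 in the others. Rpl32 was at 0.0, 17.7, 21.1 and 22 CPM against 28.1 to 93.7 (adjusted p = 0.017). Rps29, at 24.5, 28.3, 37.9 and 65.1 CPM (log2 fold change -1.22, SE 0.30, adjusted p = 0.022), and Rps3a1 (-1.56, SE 0.32, adjusted p = 0.0026) were the other members called lower. Rpl32 was the 1 member of 87 that was lower in all WSB/EiJ male libraries than in every other male library, against 0.0763% of all genes, and 1 of 68 members of at least 20 CPM against 0.288%.

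The other strains had few calls. C57BL/6J had 6 members called, all higher (0.269% of all genes were called): Rpl29, Rps3a1, Rps7, Rps18, Rps4l and Rpl3. This count ran from 1 to 7 with single libraries left out, and it was 1 when any 1 of the C57BL/6J libraries was left out, without either CAST/EiJ hippocampus library or without the 129S1/SvImJ hippocampus library titled high. Rps7 was at 85.4 to 152.4 CPM in C57BL/6J, a log2 fold change of 1.11 (SE 0.27, adjusted p = 0.041). The 129S1/SvImJ contrast called Rps3a3 and Rps3a1 (0.28% of all genes), the A/J contrast Rps3a3 and Rpl26 (0.316%), and the DBA/2J contrast Rps3a3 (0.196%), a count that ran from 0 to 2 with single libraries left out. In NOD/ShiLtJ edgeR called no member (0.156% of all genes), DESeq2 also called 0, and 12 of 87 members (13.8%) had an unadjusted p under 0.05, against 8.81% of all genes. Medians over the members were 0.16 in C57BL/6J, 0.14 in NOD/ShiLtJ, 0.02 in A/J, -0.04 in 129S1/SvImJ and -0.32 in DBA/2J, where 12 members were above 0 and 75 below. In DBA/2J the median of all genes was -0.25, but among genes of at least 20 CPM the medians were -0.33 for members and 0.02 for all genes.

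**Figure D3:**
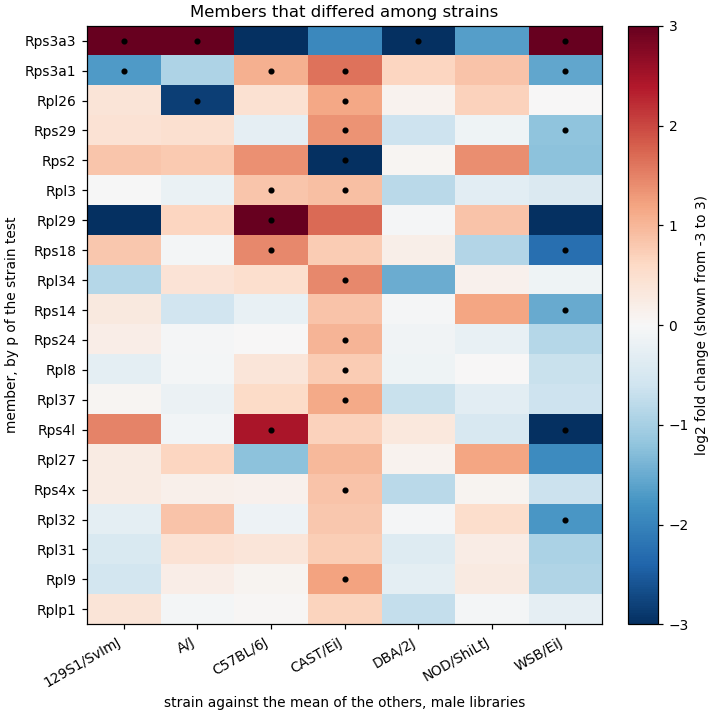
Log2 fold change of 20 of the 21 members called among strains, in each of 7 strains against the mean of the others, in male libraries. Colour runs from -3 to 3 and larger changes take the end colours, and a dot marks an adjusted p under 0.05. CAST/EiJ holds the most marks, and Rps3a1 and Rps3a3 have opposite signs in 129S1/SvImJ and WSB/EiJ.

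The members with the smallest p-values among strains were a gene and its own processed pseudogene. Rps3a1 encodes a small-subunit protein and lies on chromosome 3 (mm10, 86137940 to 86142702, minus strand). Its copy Rps3a3 lies on chromosome 13 (108670603 to 108671397, plus strand), within the gene Pde4d on the same strand. Over 791 aligned bases they differ at 8, and the longest identical stretch is 215 bases, longer than a read. Similar pairs were Rpl26 with Gm15772 (chromosome 5, 3236431 to 3236868; 2 differences in 435 bases), Rps2 with Rps2-ps13 (chromosome X, 52898588 to 52899469; 7 differences and 13 gap bases in 895), and Rpl29 with Gm10709 (chromosome 9, 7751725 to 7752204; 4 differences in 480). For each pair, 60 bases of the coding sequence are shown, read 5′ to 3′ from the mm10 genome and its annotated transcripts. They hold some of the bases that tell gene from copy, and the other differences lie outside them. Capitals mark the bases that differ, and positions count from 1 at the A of the start codon of the gene.
Rps3a1, positions 201 to 260: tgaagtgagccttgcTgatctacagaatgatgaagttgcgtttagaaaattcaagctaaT
Rps3a3: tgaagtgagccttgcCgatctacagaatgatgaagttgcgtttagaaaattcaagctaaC
Rpl26, positions 118 to 177: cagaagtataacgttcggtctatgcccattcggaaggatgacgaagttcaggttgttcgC
Gm15772: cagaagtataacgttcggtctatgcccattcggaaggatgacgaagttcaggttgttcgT
Rps2, positions 25 to 84: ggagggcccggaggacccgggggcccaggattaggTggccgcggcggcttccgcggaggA
Rps2-ps13: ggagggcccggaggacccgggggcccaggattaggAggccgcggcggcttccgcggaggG
Rpl29, positions 398 to 457: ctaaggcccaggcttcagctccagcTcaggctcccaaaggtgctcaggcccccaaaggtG
Gm10709: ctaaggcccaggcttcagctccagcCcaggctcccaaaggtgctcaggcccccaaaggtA
In gene-to-copy order the differences in these stretches are T216C and T260C for Rps3a3, C177T for Gm15772, T60A and A84G for Rps2-ps13, and T423C and G457A for Gm10709.

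Rps3a3 was counted in 3 strains. Its level was 35.0, 35.1 and 39.2 CPM in 129S1/SvImJ, 10.4, 40.9, 53.0 and 61.3 in A/J, and 13.3, 14.1, 36.4 and 38.3 in WSB/EiJ. In the 16 male libraries of C57BL/6J, CAST/EiJ, DBA/2J and NOD/ShiLtJ it was between 0.0 and 3.0 CPM, so these groups did not overlap. Its parent Rps3a1 was ordered the other way, with means of 23.1 CPM in 129S1/SvImJ, 36.0 in A/J and 24.7 in WSB/EiJ, against 90.6 in DBA/2J, 104.0 in NOD/ShiLtJ, 117.8 in C57BL/6J and 166.8 in CAST/EiJ. In CAST/EiJ it was at 149.6, 154.8, 165.8 and 197.1 CPM, above all other male libraries (10.4 to 133.6), with a log2 fold change of 1.62 (SE 0.25, adjusted p = 3.0e-06). The copy held 61.2%, 53.5% and 50.9% of the sum of both rows in the former 3 strains and at most 0.851% in the others. The adjusted p among strains was 4.5e-10 for Rps3a3 and 3.3e-09 for Rps3a1. With all copies summed into 1 row the family still differed (adjusted p = 0.0024).

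Rpl26, near the exit of the peptide tunnel, was at 0.2, 17.8, 24.3 and 49.7 CPM in A/J and had a mean of 124.3 CPM or more in every other strain. Gm15772 had a mean of 144.3 CPM in A/J (85.5 to 193.9) and of at most 8.37 CPM elsewhere, so it held 86.3% of the pair in A/J. The sum of the pair in A/J, 167.3 CPM, lay within the range of the other strains. In CAST/EiJ Rpl26 was at 220.7 to 270.2 CPM (log2 fold change 1.17, SE 0.29, adjusted p = 0.019), and another copy, Gm11826, had 48.1 CPM (35.6 to 62.3), against at most 2.42 CPM in the other strains.

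Rps2, of the small subunit, was at 2.8, 3.5, 4.5 and 5.1 CPM in CAST/EiJ, and at 0.5, 0.8, 9.2 and 41.7 in WSB/EiJ. The other strains ran from 14.7 to 83.3 CPM. Rps2-ps13 was at 42.0 to 50.9 CPM in CAST/EiJ and 11.0 to 57.5 in WSB/EiJ, with strain means of at most 1.81 CPM elsewhere. It held 92.1% of the pair in CAST/EiJ and 69.8% in WSB/EiJ. The row of Rps2 was lower in CAST/EiJ by a log2 fold change of -3.19 (SE 0.59, adjusted p = 1.9e-04), but with near copies summed the value was 0.13 and the family was not called among strains (adjusted p = 0.92). The called fall of Rps2 therefore held for its own row only.

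Rpl29 was at 6.8, 21.2, 63.8 and 68.6 CPM in C57BL/6J and between 0.0 and 5.3 CPM in all other male libraries, including 0.0 in all 3 of 129S1/SvImJ. Gm10709 had 33.9 CPM in CAST/EiJ (26.2 to 41.4) and means of at most 0.0788 CPM elsewhere, and a further copy, Gm8210, had means of 2.96 to 8.37 CPM in the 5 remaining strains. The level of Rpl29 with its copies is thus carried by a different row in C57BL/6J and in CAST/EiJ. Rps18 shared its level with Gm10260, annotated as protein-coding, which held 35.0% to 67.7% of the pair in A/J, CAST/EiJ, DBA/2J, NOD/ShiLtJ and WSB/EiJ and 2.31% to 3.26% in C57BL/6J and 129S1/SvImJ. Among further copies, Rps4x-ps was at 5.73 to 13.9 CPM in CAST/EiJ and 0 in all other male libraries, Gm10073, a copy of Rplp1, was at 9.17 to 36.3 CPM in CAST/EiJ and at most 2.88 elsewhere, and Gm5805, a copy of Rps14, had means of 1.14 CPM in WSB/EiJ and 4.86 to 19.5 in the other strains. Rps24-ps3 had 31.7 CPM in NOD/ShiLtJ and 27.2 in WSB/EiJ, and at most 0.114 CPM in the other strains.

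**Figure D4:**
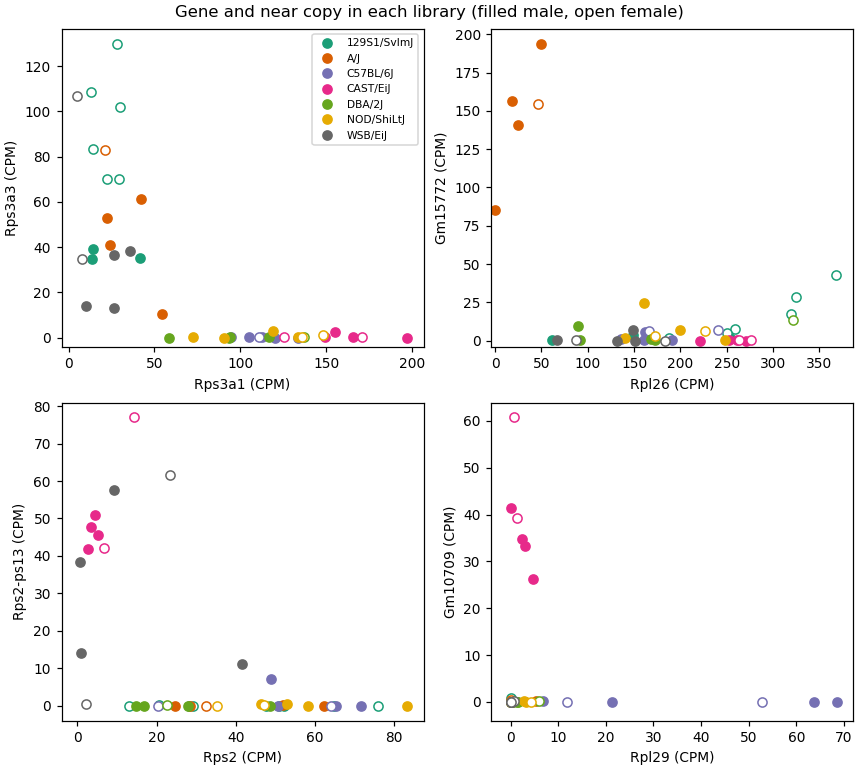
Level of 4 near copies against that of their genes, both in CPM, with 1 point for each library, coloured by strain (filled male, open female). Rps3a3, Gm15772, Rps2-ps13 and Gm10709 are high where the gene is low in some strains, and Rpl29 and Gm10709 are both low outside C57BL/6J and CAST/EiJ.

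The strain patterns of Rps3a3, Gm15772 and Gm10709 recurred in the female libraries, which the strain test did not use, but those of other copies did so only in part. Rps3a3 had means of 94.0 CPM in 129S1/SvImJ (n = 6) and 70.8 in WSB/EiJ (n = 2), 82.9 CPM in the A/J library, and at most 0.686 in the other strains. Gm15772 was at 154 CPM in the A/J female library, but it also reached 43.1 CPM in 129S1/SvImJ females and 13.3 in the DBA/2J female library. Gm10709 had a mean of 50.1 CPM in CAST/EiJ females. Rps2-ps13 was at 42.2 and 77.1 CPM in CAST/EiJ females, but at 0.432 and 61.6 CPM in those of WSB/EiJ. The sharing of Rps18 with Gm10260 did not recur in WSB/EiJ females. There Rps18 was at 64.3 CPM in hippocampus and 54.9 in cortex, and Gm10260 at 0.244 and 0.865 CPM. In the same libraries Rps24-ps3 was at 28.0 and 0.0 CPM. mm10 is the sequence of C57BL/6J, and whether the reads of another strain were assigned to the gene or to its copy by their mapping was not tested.

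Summing each member with its near copies gave 83 rows, of which 19 (22.9%) differed among strains, against 1.65% of all rows. Of the 21 members called alone, 18 belonged to a family that was called, and the exceptions were Rps2, Rps18 (adjusted p = 0.085) and Rps24 (adjusted p = 0.074). In CAST/EiJ 22 families (26.5%) were higher, against 0.592% of all rows, and none was lower. They included all 14 members higher on their own. The median log2 fold change over families was 0.79, with 77 of 83 above 0. The largest were Rpl29 (1.77, SE 0.48, adjusted p = 0.049) and Rps6 (1.59, SE 0.21, adjusted p = 1.1e-07), the subunit phosphorylated by the S6 kinases. The row of Rps6 alone was at 0.51 (SE 0.24, adjusted p = 0.57). Rps12 was at 1.48 (SE 0.28, adjusted p = 3.0e-04) with its copies. In WSB/EiJ 5 families (6.02%) were lower, against 0.371% of all rows: Rps29, Rps14, Rps4l, Rpl32 and Rps18. In NOD/ShiLtJ Rps14 with its copies was higher by 1.24 on the log2 scale (SE 0.29, adjusted p = 0.037). In C57BL/6J, 129S1/SvImJ, A/J and DBA/2J edgeR called 0 families. The calls of single members there did not pass for the sums, but a missed threshold does not tell what the copies contributed. Rps4l, called by edgeR in C57BL/6J close to the threshold (adjusted p = 0.048), has 0 copies, so its own row was not changed by summing. Rpl29 in C57BL/6J was at 1.87 (SE 0.48, adjusted p = 0.067) with its copies, and Rpl26 in A/J at -0.08 (SE 0.24, adjusted p = 1.0).

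CAST/EiJ and WSB/EiJ females were further libraries outside the strain test. Of the 14 members higher in CAST/EiJ males, 12 were also higher in the CAST/EiJ female libraries than in the other females, with a median log2 difference of 0.69. Rps23 and Rpl37 were not. Over all 87 members 53 (60.9%) had that direction, and over all 168 genes called higher 162 (96.4%) did. Of all genes tested 28.9% did, with a median log2 difference of 0.0. That share is not matched for level, and a gene with a difference of 0.0 is not higher. A mean of at least 20 CPM was reached by 68 of 87 members but by 5904 of 27529 genes. All 6 members lower in WSB/EiJ males were lower in its females, as were 72 of all 87 members (82.8%), 88 of 105 genes called (83.8%) and 52.2% of all genes tested, so this share was high whether or not a member was called. The summed level was 10885 and 11478 CPM in CAST/EiJ females and 6899 to 13543 in the other 14, so these groups overlapped. The female libraries of CAST/EiJ, A/J and NOD/ShiLtJ had rRNA-like shares of 9.66% to 12.1%, and those of the other strains 1.59% to 4.05%, and the part of this difference in the female values was not tested.

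The start of the mRNA was looked at for the members higher in CAST/EiJ, since TOP mRNAs are regulated together. A start site was given by RefSeq (GRCm38.p6) for 63 protein-coding members. The motif searched was a C followed by at least 4 bases that are each C or T, on the strand of the gene, starting within 5 bases of that site. It was present in 29 of 63 members (46%), 17 of 69 mitochondrial ribosomal protein genes (24.6%) and 5718 of 27025 genes in all (21.2%). Among members higher in CAST/EiJ it was present in 4 of the 9 with a site. The 4 starts are shown with 15 bases on either side of the cap site and the motif in capitals.
Rplp2, chr7:141447636-141447665, plus strand: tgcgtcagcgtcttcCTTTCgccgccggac
Rps24, chr14:24490663-24490692, plus strand: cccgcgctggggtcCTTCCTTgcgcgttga
Rpl34, chr3:130730323-130730352, minus strand: ccttccttttcctCTTCCggggacggtgct
Rps23, chr13:90923107-90923136, plus strand: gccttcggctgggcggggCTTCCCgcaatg
Not finding the motif in the other members says only that these letters are not in this window.

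Genes of the same pathway were counted next. Of 13 other TOP mRNAs, 3 were higher in CAST/EiJ: Tpt1, a translationally controlled protein (log2 fold change 1.23, SE 0.15, adjusted p = 5.9e-09), and the elongation factor genes Eef1b2 (1.29, SE 0.24, adjusted p = 1.6e-04) and Eef1a1 (0.69, SE 0.13, adjusted p = 2.6e-04). Of the ribosomal proteins outside the symbol rule, Rack1 was higher (0.88, SE 0.22, adjusted p = 0.016) and Rpsa was lower (-1.52, SE 0.24, adjusted p = 1.2e-05), while Fau was at 0.62 (adjusted p = 0.31). Near copies were searched for members only, so the values of these genes and of the TOP list are those of their own rows. In A/J, Hnrnpa1 of the TOP list was lower (-1.24, SE 0.30, adjusted p = 0.038). Among 23 ribosome biogenesis genes such as Ncl and Npm1, 8 regulators including Mtor and Larp1, and 79 mitochondrial ribosomal protein genes, edgeR called 0 in every comparison. In CAST/EiJ, 1 of 23, 0 of 8 and 3 of 79 of them had an unadjusted p under 0.05, with median log2 fold changes of 0.47, -0.02 and 0.47. Their medians were thus above that of all genes for biogenesis and mitochondrial ribosomal genes, without a gene passing the test.

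The region comparison asked whether hippocampal and cortical EC differ. It had no covariates, so differences by sex and strain stayed in the spread against which region was tested. Of 88 members none was called, against 0.0755% of 29120 genes, and 4 members (4.55%) had an unadjusted p under 0.05, against 5.60% of all genes. DESeq2 also called 0, and edgeR's default fit called 4. The summed level was 7805 ± 2488 CPM in hippocampus (n = 22) and 8023 ± 2427 in cortex (n = 21). The median log2 fold change of hippocampus over cortex was -0.01, with 40 above 0 and 48 below. Among the 72 members of at least 20 CPM the largest difference in either direction was 0.47, that of Rpl12. Members with the smallest p in each direction did not pass (adjusted p = 0.669 for each). Rpl22l1 ran from 0.0 to 109.9 CPM in hippocampus (median 8.17) and from 0.0 to 21 in cortex (median 2.37), a log2 fold change of 1.4 with a 95% interval from 0.25 to 2.54. Rps27l ran from 0.0 to 40.5 CPM (median 7.82) against 0.0 to 15.6 (median 3.39), and Rps4l from 0.0 to 125.7 against 0.0 to 48.4. On the other side, Rpl18 (median 62.2 against 73.8 CPM) was at -0.38 (interval -0.76 to -0.01) and Rpl12 (47.0 against 62.5 CPM) at -0.47 (interval -0.99 to 0.05). Rpl39l was at 0 in all 22 hippocampus libraries and was counted in 2 cortex libraries, so no fold is given.

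The title tag was compared within the male libraries, without strain or region as covariates. Differences among strains thus stayed in the spread against which the tag was tested. None of the 87 members was called, against 1.06% of all genes, 1 member (1.15%) had an unadjusted p under 0.05 against 8.11% of all genes, DESeq2 called 0 and edgeR's default fit called 3. The summed level was 6594 ± 2040 CPM in libraries titled high (n = 14) and 6787 ± 1513 in those titled low (n = 13), and the median log2 fold change of high over low was 0.00, with 44 above 0 and 43 below. Among the 68 members of at least 20 CPM the largest difference was 0.42. Rpl7l1 was at 34.6 CPM in libraries titled high and 27.3 in those titled low (medians), a log2 fold change of 0.41 with an interval from -0.11 to 0.93. Rpl37 (66.9 against 81.4 CPM) was at -0.40 (interval -0.85 to 0.05). Rpl29, with 0.0 to 21.2 CPM against 0.0 to 68.6, was at -1.94 (interval -3.88 to 0.01). Rpl39l and Rpl32l were at 0 in all 13 libraries titled low and reached 19.3 and 7.89 CPM in the highest library titled high, so no fold is given. The difference of the tag effect between regions was tested as an interaction, and 0 of 87 members and 0% of all genes passed with edgeR, and 0 members with DESeq2. No member and 2.05% of all genes had an unadjusted p under 0.05 in it.

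Wild-derived strains were compared with long-inbred strains over all 43 libraries. Of 88 members 2 (2.27%) were called, against 0.749% of 29120 genes, and both were lower, against 0.24% of all genes. Rps2 ran from 0.5 to 41.7 CPM (median 4.8) in the 12 wild-derived libraries and from 13.1 to 83.3 (median 47.7) in the 31 long-inbred libraries, a log2 fold change of -2.21 (SE 0.37, adjusted p = 8.4e-05). With its pseudogenes or near copies summed, the value was 0.24 or 0.23, so its direction belongs to the row of Rps2 alone. Rpl36 ran from 0.6 to 71.4 CPM (median 37.1) against 26.5 to 137.3 (median 79.4), a log2 fold change of -1.05 (SE 0.26, adjusted p = 0.026). It was -0.47 with copies summed and no longer passed, and without WSB/EiJ it was -0.59. In the other direction no member passed. The smallest p-values were those of Rpl30 (0.65, SE 0.22, adjusted p = 0.21), Rpl23 (0.50, SE 0.19, adjusted p = 0.36) and Rpl3 (0.44, SE 0.18, adjusted p = 0.47). The median over members was -0.00, with 44 above 0 and 44 below. The wild-derived strains held both ends of the order of summed levels, CAST/EiJ at 9787 and WSB/EiJ at 4803 CPM in male libraries. At the low end WSB/EiJ overlapped with the long-inbred DBA/2J, at 5167 CPM, which held the lowest single library. Without CAST/EiJ 5 members were called, without WSB/EiJ 13, and with counts summed per strain 0.

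**Figure D5:**
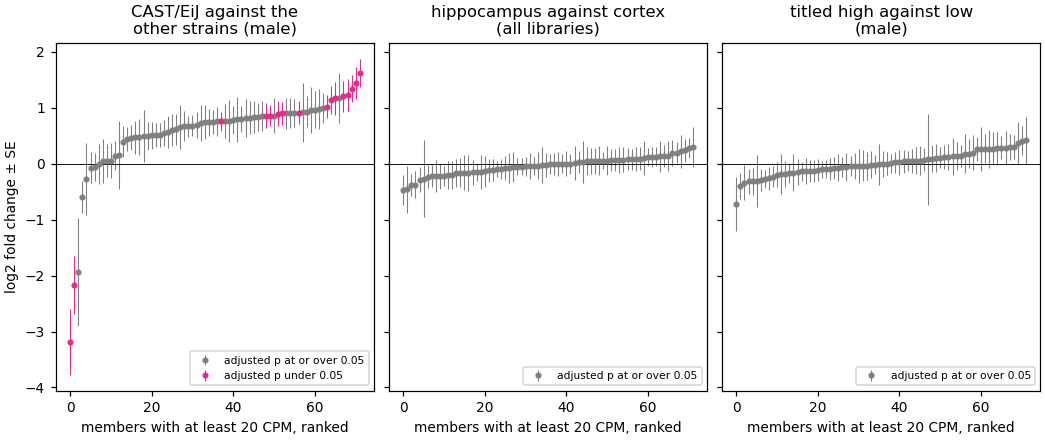
Log2 fold changes ± SE of the 72 members with a mean of at least 20 CPM over 43 libraries, ranked within each panel, for CAST/EiJ against the other strains (male), hippocampus against cortex (all libraries) and titled high against low (male). Pink points have an adjusted p under 0.05 and occur only in the CAST/EiJ panel, where most points lie above 0.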

How the data were processed

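RNA of sorted brain EC was sequenced in stranded libraries after rRNA depletion. The authors aligned reads to mm10 and counted them per gene, and the deposited table holds raw counts, with no normalization, for 54532 genes in 43 libraries. The submitters' processing notes name HISAT2 2.1.0, SAMtools 1.9 and featureCounts of Subread 1.4.4. Of the genes, 54495 matched GENCODE M21 by identifier. Totals ran from 1626534 to 49372356 counts per library, which limits the precision of members near 0.

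Library sizes were adjusted with TMM factors (edgeR 4.0.16, run under R 4.3.3), and genes were filtered at 0.5 CPM in at least 1 library. edgeR's quasi-likelihood test (trended dispersion, bias-adjusted deviances) was applied to all genes, two-sided, with Benjamini-Hochberg adjustment at 0.05. Apart from the interaction of title tag and region, the main fits had no covariates. Each strain was set against the mean of the others within the strain fit. Programs were tested on simulated data, where false calls exceeded the nominal rate, most in the strain test. In fits with covariates, genes fitted above 5 times their largest observed count were left out. Alternatives were DESeq2 1.42.0, its size factors, edgeR's default fit, other filters, covariates, subsets, libraries or strains left out, scaling without the members, and pseudogenes or near copies summed. Near copies were found with BLAST 2.17.0 (identity of at least 95%, 100 aligned bases, e-value of at most 1e-20, 0.5 of the copy). Sequences were read in Python 3.11.15.

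Named members were up to 8 per direction in the tag, region and origin comparisons (3 if none passed), the 12 with the smallest p among strains, paralogs, stalk genes, and the 5 highest and lowest per length. Others were named after their values were seen, among them Rpl7a, Rps10, Rps6 and Rps12, the members without overlap and the copies. Some members that the rule names are not reported here. The members, lists and tests were chosen with earlier results of these data known, and near-copy sums and the removal of both WSB/EiJ hippocampus libraries were added after the data were seen.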

Additional observations from a re-analysis of the deposited data

Results flagged for a closer look

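In 10 of 90 groups of 4 male libraries or more, 1 library lay far from the others of its strain by Dixon's criterion. The criterion is set to flag about 1 in 20 groups by chance. However, the summed level and its parts are not separate groups, and several flagged rows are near 0. The 10 of 90 cannot therefore be read as an excess over chance. In NOD/ShiLtJ the hippocampus library titled high had a summed level of 8189 CPM against 6485 to 6528 in the others, 3171 CPM for the small subunit (others 2475 to 2542) and 5018 CPM for the large subunit (others 3950 to 4011). The same library held Rps3a3 at 3.0 CPM (others up to 0.332). In A/J the hippocampus library titled low held Rpl29 at 5.27 CPM (others 0) and Rps24 at 65.6 CPM (others 171 to 185). The DBA/2J hippocampus library titled high held Rps29 at 83.5 CPM (others 45.3 to 48.3). In CAST/EiJ the cortex library titled low held Rpl3 at 272 CPM (others 232 to 237) and the cortex library titled high held Rps3a3 at 2.56 CPM (others up to 0.249). The WSB/EiJ cortex library titled high held Rpl29 at 0.403 CPM (others 0).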

How the results depend on the processing

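The summed level of CAST/EiJ against the other male libraries, 0.70 on the log2 scale, kept its direction under every alternative and ran from 0.67 to 0.74 with single libraries left out. Counts of members called depended more on the processing. Apart from the sums of near copies, the share of all genes called under an alternative is not given here or above. These counts therefore tell how stable the calls of members were, and not how members compare with all genes. With edgeR's default fit 3 members were called by title tag, 4 by region, 11 by origin, 14 as lower in WSB/EiJ and 63 over all strain contrasts (34 in the report), and with DESeq2 33 by strain, 5 by origin, 17 as lower in WSB/EiJ and 58 over the contrasts. In hippocampus alone 1 was called by strain, 0 as higher in CAST/EiJ, 1 as lower in WSB/EiJ and 5 over the contrasts, and in cortex alone 3, 1, 0 and 5, where fewer libraries were tested. With near copies summed 22 families were higher in CAST/EiJ. All 43 libraries with sex and region as covariates gave 12 members lower in WSB/EiJ, and leaving out both WSB/EiJ hippocampus libraries gave 0. By origin, 0 were called with pseudogenes summed, 1 in male libraries only, 0 with counts summed per strain, 1 without 129S1/SvImJ, 1 without C57BL/6J, 5 without CAST/EiJ and 13 without WSB/EiJ. With single libraries left out, calls ran from 13 to 23 by strain, 8 to 20 as higher in CAST/EiJ, 1 to 9 as lower in WSB/EiJ and 22 to 41 over the contrasts, 22 without the CAST/EiJ hippocampus library titled low. Rps2 reversed when pseudogenes or near copies were summed with it, to 0.24 and 0.23 by origin and to 0.15 and 0.13 in CAST/EiJ. Apart from the sums and subsets, the cause of these shifts was not tested. Over the single-gene values tested by origin and by strain, 482 of 527 kept direction and call, 41 lost the call and 4 reversed. No paired analysis was possible because no label ties a library to a mouse or numbers replicates across strains. Each strain had 3 or 4 male libraries, which limits what can be resolved for single members.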
